A study of Mus musculus with 8 samples.

Results

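A set of 10 genes of the matricellular and elastic fibre parts of the extracellular matrix, Fn1, Sparc, Postn, Thbs1, Tnc, Vcan, Eln, Fbn1, Fbln1 and Mfap5, were read from the raw counts of BAT of mice lacking the lipase ATGL in brown adipocytes and of their wild-type (WT) controls. These are 10 of the 31053 genes counted, listed by name with earlier results of these data known. Shares over all genes are therefore given beside them as description, not as a test. Of the 10 genes, 8 passed the filter on low counts and were among the 8930 genes tested. Vcan and Fbln1 did not pass it and were fitted with a looser filter of at least 1 count in any mouse. In Ucp1Δ/Δ mice, 6 of the 8 tested genes rose (Fn1, Sparc, Thbs1, Tnc, Fbn1 and Mfap5), none fell, and Postn and Eln did not pass the test. Among all genes tested, 13.3% rose and 7.63% fell at the same threshold, an adjusted p under 0.05 by edgeR's quasi-likelihood test, 21.0% in either direction. The same 6 genes also had a log2 fold change above 1, which 9.56% of all genes tested combined with a rise. The filter needed at least 4 mice above its level, and all 6 genes had 4 Ucp1Δ/Δ mice above it. In WT, Sparc had 4 such mice, Fbn1 3, Mfap5 2, Fn1 1, and Thbs1 and Tnc 0. All but Sparc thus passed it only with Ucp1Δ/Δ mice counted, so their share is not independent of their rise.

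The study compared 4 WT mice with 4 Ucp1Δ/Δ mice, labelled ATGLKO, in which a Cre recombinase under the Ucp1 promoter deletes the floxed Pnpla2 gene (Pnpla2 fl/fl, Ucp1-Cre). The background strain is C57BL6/J, and whether the WT mice carried the floxed allele or the Cre is not stated in the sources used here. Ucp1 is active in brown adipocytes, so other cells of the tissue keep Pnpla2. The labels give an age of 10 weeks and the study's figure legend for these mice 8 weeks. The labels name both brown adipose tissue and its stromal vascular fraction, whereas brown adipocyte markers were abundant in all 8 libraries, at a summed 13265 to 21419 CPM (counts per 1000000 of library size scaled by TMM) in WT mice and 9438 to 13916 CPM in Ucp1Δ/Δ mice, so the samples are called BAT here.

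Matricellular proteins are secreted into the matrix, where they act more as signals to cells than as structure. Fibronectin is the scaffold on which much of the matrix assembles, SPARC binds collagen, thrombospondin-1 and tenascin-C modulate cell adhesion, and versican is a large proteoglycan that binds hyaluronan. Elastic fibres consist of an elastin core laid on microfibrils of fibrillin-1, with fibulins and microfibril-associated proteins bound along them. In adipose tissue, many of these genes are expressed by fibroblasts, progenitors and vascular cells, though not by these alone, and remodelling of the matrix accompanies expansion of the tissue.

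Libraries held 2017697 to 3115956 counts, and 38.4 to 45.6% of them came from mitochondrially encoded genes. A count of 3 corresponds to 0.933 to 1.53 CPM, which sets the precision for most of the 10 genes, since all but Sparc held at most 296 counts in a mouse. Pnpla2, the targeted gene, was lower in Ucp1Δ/Δ mice by a log2 fold change (log2FC) of -2.62. Skeletal muscle markers varied within both genotypes, from 24.4 to 1722 CPM in WT and from 75.6 to 2310 CPM in Ucp1Δ/Δ mice, with the highest sums in WT1 and Ucp1Δ/Δ2. Without these 2 mice, 6 member genes still rose, none fell, and the genes called in all dropped from 1872 to 1095.

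Upstream sequence was read for the members whose reference table holds a promoter window, 6 of 10, to show the DNA just before the start of genes that differed and of one that did not. These genes have 9 windows, of which 5 overlap no annotated exon, and 1 of these is shown for Tnc, Vcan and Postn each. The 250 bases before the annotated start are given below 5′ to 3′ on the strand of the gene, from RefSeq on GRCm38.p6, for Tnc (chr4:64047016-64047265, minus strand), Vcan (chr13:89742513-89742762, minus strand) and Postn (chr3:54360857-54361106, plus strand). Capitals mark matches, on either strand, to the core of a TATA box spelled TATAAA, to a GC box spelled GGGCGG and to a CCAAT box, spelled as its name. Searches for an AP-1 motif (TGANTCA), a SMAD motif (CAGAC) and a TEAD motif (GGAATG) found no match in these 3 windows. In the other 2 windows without exons, the SMAD motif began 191 bases before a further annotated start of Postn, and 174 and 9 bases before a start of Fbln1, the latter pair on the opposite strand.
Tnc: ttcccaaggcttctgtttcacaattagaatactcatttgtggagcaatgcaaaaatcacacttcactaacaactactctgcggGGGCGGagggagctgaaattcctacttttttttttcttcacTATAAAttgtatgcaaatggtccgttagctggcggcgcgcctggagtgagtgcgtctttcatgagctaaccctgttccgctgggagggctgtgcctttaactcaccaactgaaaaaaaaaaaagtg
Vcan: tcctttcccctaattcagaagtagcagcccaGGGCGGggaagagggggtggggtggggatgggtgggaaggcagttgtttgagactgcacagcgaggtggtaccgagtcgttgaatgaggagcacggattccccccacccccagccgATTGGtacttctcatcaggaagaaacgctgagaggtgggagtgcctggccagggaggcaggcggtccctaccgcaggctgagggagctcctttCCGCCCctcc
Postn: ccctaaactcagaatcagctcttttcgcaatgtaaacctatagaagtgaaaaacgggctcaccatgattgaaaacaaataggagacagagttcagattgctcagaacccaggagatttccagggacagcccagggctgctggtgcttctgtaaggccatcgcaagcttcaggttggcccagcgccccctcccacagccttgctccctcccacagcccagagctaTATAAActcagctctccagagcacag
The TATA box core began 126 bases before the start of Tnc and 26 bases before that of Postn, and was not found in the Vcan window. A GC box was found for Tnc, 167 bases before the start, and at 2 positions for Vcan, 219 and 10 bases before it, the nearer one on the opposite strand. A CCAAT box was found only for Vcan, on the opposite strand, 103 bases before the start. Of 32851 windows of the same length, 12.4% held the TATA box core, 32.7% the GC box, 33.8% the CCAAT box, 6.75% the AP-1 motif, 42.2% the SMAD motif and 12.6% the TEAD motif, so a match is common and is given as a description of the sequence alone.

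Fn1 encodes fibronectin and lies on chromosome 1 of mm10 (71585520 to 71653200, minus strand). It stood at 2.55, 5.38, 3.34 and 3.55 CPM in WT1 to WT4 and at 15.9, 28.6, 13.4 and 20.2 CPM in Ucp1Δ/Δ1 to Ucp1Δ/Δ4. Every Ucp1Δ/Δ mouse was above every WT mouse, and Ucp1Δ/Δ2 was the highest. The log2FC was 2.39 (SE 0.32, 95% interval 1.71 to 3.07, adjusted p = 7.18e-05), from means of 3.70 ± 1.20 and 19.5 ± 6.69 CPM (SD, n = 4 in each group).

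Sparc, a collagen-binding matricellular gene on chromosome 11 (55394500 to 55423183, minus strand), had the deepest counts of the 10, from 1618 to 2313 in WT and from 4446 to 6321 in Ucp1Δ/Δ mice. Its levels were 825, 887, 772 and 1028 CPM in WT1 to WT4 and 2236, 1775, 2146 and 1908 CPM in Ucp1Δ/Δ1 to Ucp1Δ/Δ4. The genotypes did not overlap, and Ucp1Δ/Δ2, the highest mouse for Fn1, was here the lowest of its genotype. Sparc rose by a log2FC of 1.20 (SE 0.16, 95% interval 0.85 to 1.55, adjusted p = 8.92e-05).

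Thbs1, which encodes the adhesive glycoprotein thrombospondin-1 (chromosome 2, 118111876 to 118127133, plus strand), was at 0.510, 1.34, 2.0 and 2.03 CPM in WT1 to WT4 and at 13.8, 16.8, 8.78 and 5.15 CPM in Ucp1Δ/Δ1 to Ucp1Δ/Δ4. These levels rest on 1 to 6 counts per WT mouse and 12 to 54 counts per Ucp1Δ/Δ mouse, and the lowest Ucp1Δ/Δ mouse was still above all WT mice. The log2FC was 2.86 (SE 0.46, 95% interval 1.88 to 3.84, adjusted p = 0.000345). The ratio of pooled counts per effective library was 7.66, with a counting interval of 4.4 to 14.4.

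Tnc, the gene of tenascin-C (chromosome 4, 63959785 to 64047015, minus strand), whose promoter window is printed above, was at 1.02, 0.896, 0 and 1.52 CPM in WT1 to WT4 and at 4.25, 5.29, 6.69 and 5.58 CPM in Ucp1Δ/Δ1 to Ucp1Δ/Δ4. WT mice held 0 to 3 counts, where a count of 0 in WT3 allows up to 1.0 CPM, and Ucp1Δ/Δ mice held 12 to 17, again without overlap. The log2FC was 2.73 (SE 0.53, 95% interval 1.6 to 3.85, adjusted p = 0.00153), and the pooled ratio 7.05, with a counting interval of 3.21 to 18.3. Both Thbs1 and Tnc passed the filter on low counts through Ucp1Δ/Δ mice alone, since none of the WT mice exceeded it.

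Postn encodes periostin, a matricellular protein of fibroblasts that binds collagen and integrins (chromosome 3, 54361109 to 54391037, plus strand). It was at 15.3, 26, 28.4 and 30.4 CPM in WT1 to WT4 and at 20.5, 34.5, 23.4 and 24.0 CPM in Ucp1Δ/Δ1 to Ucp1Δ/Δ4. The genotypes overlapped throughout, with a mean of 25.0 ± 6.72 CPM in WT and 25.6 ± 6.14 CPM in Ucp1Δ/Δ mice (SD, n = 4). The log2FC was 0.034 (SE 0.24, adjusted p = 0.942), and its 95% interval, -0.47 to 0.54, lies below the intervals of Fn1, Sparc, Thbs1 and Tnc. A sign for Postn cannot be read from these libraries, because leaving out WT1 or Ucp1Δ/Δ2 gave -0.15 or -0.14.

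Vcan, the versican gene (chromosome 13, 89655312 to 89742509, minus strand), was too low for the default filter, with 1 to 5 counts per WT mouse and 9 to 23 per Ucp1Δ/Δ mouse. Its levels were 0.510, 0.896, 0.668 and 2.53 CPM in WT1 to WT4 and 3.89, 7.16, 4.18 and 3.86 CPM in Ucp1Δ/Δ1 to Ucp1Δ/Δ4. The genotypes did not overlap. Fitted with all genes of at least 1 count, Vcan rose by a log2FC of 2.05 (SE 0.56, 95% interval 0.96 to 3.15, adjusted p = 0.00335). In that fit 9.81% of 16617 genes rose and 5.31% fell, and 7 of the 10 member genes rose. The call for Vcan was lost when WT1 and Ucp1Δ/Δ2 were both left out (log2FC 1.58, adjusted p = 0.119).

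**Figure D1:**
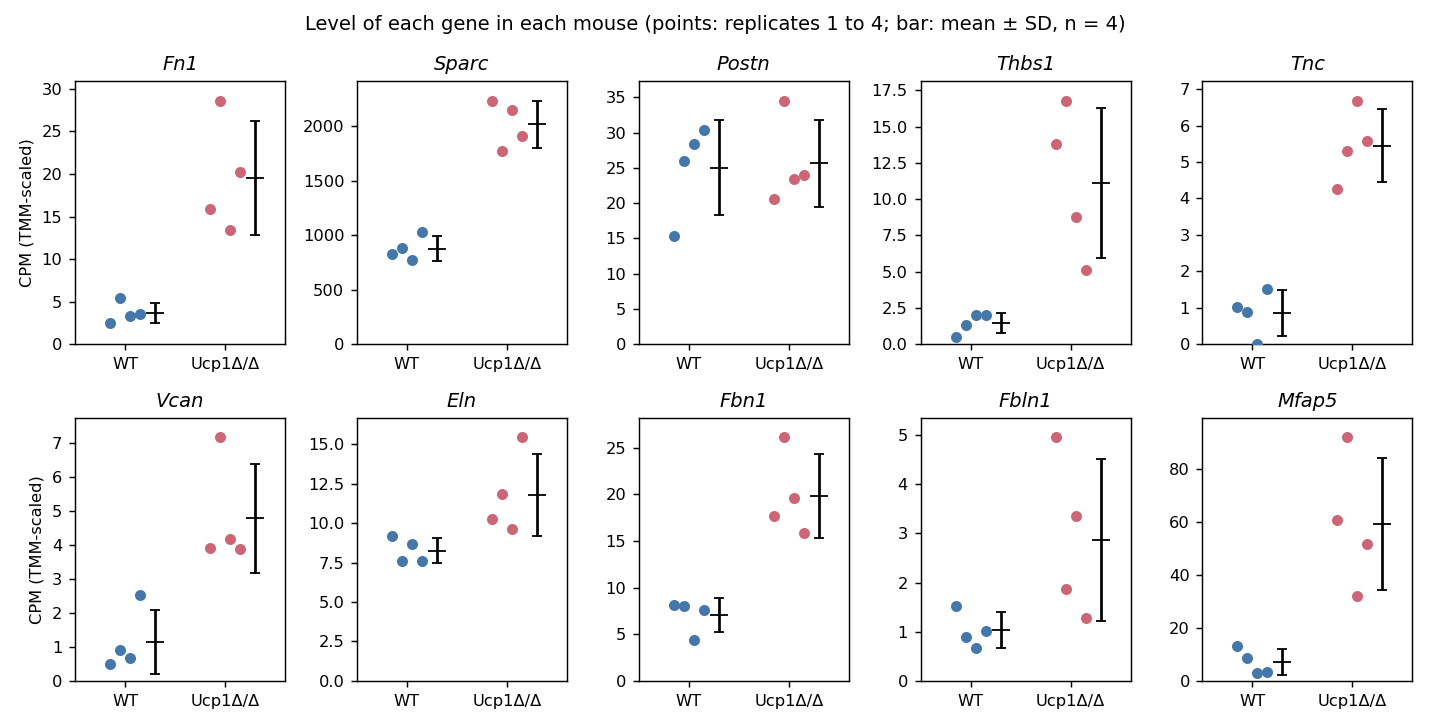
Level of each of the 10 genes in CPM (TMM-scaled, linear axes from 0, a separate scale per gene), with a point per mouse and bars at the mean ± SD of 4 WT or 4 Ucp1Δ/Δ mice. All Ucp1Δ/Δ points lie above all WT points in 8 genes, and the points of Postn and Fbln1 overlap.

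Of the 4 elastic fibre genes, all had a log2FC above 0. Fbn1 and Mfap5, both of the microfibril, rose, while Eln, the gene of the elastin core, did not pass the test and Fbln1 was at the floor of the counts.

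Fbn1 encodes fibrillin-1, the main microfibril protein (chromosome 2, 125300594 to 125507993, minus strand). It was at 8.16, 8.06, 4.34 and 7.6 CPM in WT1 to WT4 and at 17.7, 26.1, 19.6 and 15.9 CPM in Ucp1Δ/Δ1 to Ucp1Δ/Δ4. WT3 was the lowest of all mice, and the genotypes did not overlap. The log2FC was 1.53 (SE 0.27, 95% interval 0.96 to 2.09, adjusted p = 0.000662).

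Mfap5, which encodes the microfibril-associated glycoprotein MAGP-2 (chromosome 6, 122505845 to 122529290, plus strand), was at 13.3, 8.51, 3.01 and 3.55 CPM in WT1 to WT4 and at 60.9, 92.1, 32.2 and 51.9 CPM in Ucp1Δ/Δ1 to Ucp1Δ/Δ4. WT mice differed among themselves more than for most members, and the lowest Ucp1Δ/Δ mouse was above the highest WT mouse. The log2FC was 3.11 (SE 0.40, 95% interval 2.27 to 3.96, adjusted p = 4.80e-05).

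Eln, the elastin gene (chromosome 5, 134702593 to 134747323, minus strand), was at 9.18, 7.62, 8.68 and 7.6 CPM in WT1 to WT4 and at 10.3, 11.8, 9.61 and 15.5 CPM in Ucp1Δ/Δ1 to Ucp1Δ/Δ4. All Ucp1Δ/Δ mice were above all WT mice by a small margin. The log2FC was 0.50 (SE 0.25, 95% interval -0.030 to 1.04, adjusted p = 0.178), so a difference was not called over all genes. Its interval lies below that of Mfap5 and overlaps that of Fbn1.

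Fbln1 encodes fibulin-1, a glycoprotein that binds fibronectin and elastic fibres (chromosome 15, 85205949 to 85286535, plus strand). It held 2 to 3 counts per WT mouse and 3 to 14 per Ucp1Δ/Δ mouse, or 1.53, 0.896, 0.668 and 1.01 CPM in WT1 to WT4 and 4.95, 1.87, 3.34 and 1.29 CPM in Ucp1Δ/Δ1 to Ucp1Δ/Δ4. The genotypes overlapped at these depths. With the looser filter the log2FC was 1.46 (SE 0.65, 95% interval 0.19 to 2.74, adjusted p = 0.121), so a difference was not detectable at this depth.

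**Figure D2:**
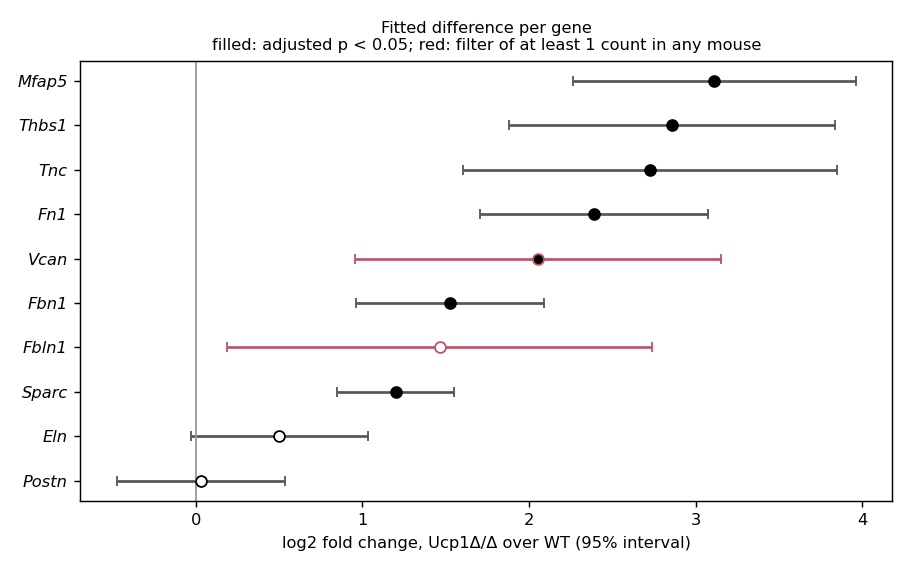
Log2FC of Ucp1Δ/Δ against WT for the 10 genes, with 95% intervals from edgeR's quasi-likelihood fit and Vcan and Fbln1 fitted with the looser filter. Mfap5, Thbs1, Tnc, Fn1 and Vcan lie above 2, and the intervals of Postn and Eln include 0.

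Placed by log2FC among the 8930 genes tested, Mfap5 ranked 103, Thbs1 131, Tnc 155, Fn1 218, Fbn1 493 and Sparc 707, with Eln at 1802 and Postn at 4138. The intervals of Mfap5, Thbs1, Tnc and Fn1 overlap one another, so their order is not resolved, and those of Fbn1 and Sparc overlap as well. Genotypes did not overlap in 8 of the 10 genes, every time with Ucp1Δ/Δ mice higher, against 14.4% of the genes tested and 10.9% of genes with at least 1 count. Over all 10 genes with the looser filter the median log2FC was 1.78, beside 0.083 over all genes in that fit.

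The mice of a genotype did not move alike across the 10 genes. Among Ucp1Δ/Δ mice, Ucp1Δ/Δ2 was the highest in 6 genes (Ucp1Δ/Δ1 in 2, Ucp1Δ/Δ3 and Ucp1Δ/Δ4 in 1 each), while the lowest was Ucp1Δ/Δ4 in 4 genes and Ucp1Δ/Δ3 in 3. Summed without Sparc, whose counts outweigh the rest, the other 9 genes reached 52.0, 59.6, 51.1 and 59.8 CPM in WT1 to WT4 and 152, 224, 121 and 143 CPM in Ucp1Δ/Δ1 to Ucp1Δ/Δ4. Ucp1Δ/Δ2 also had the highest summed fibroblast, macrophage and muscle markers of its genotype, at 3134, 1582 and 2310 CPM. Their part in the result was not tested. Without Ucp1Δ/Δ2, 5 member genes rose, as Tnc no longer passed the filter on low counts.

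**Figure D3:**
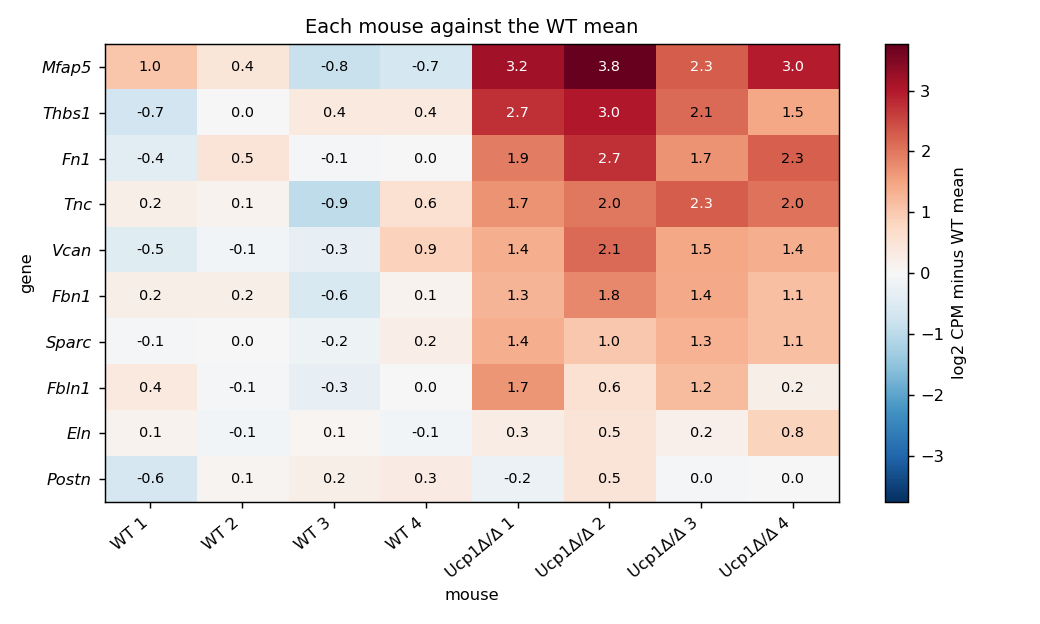
Deviation of each mouse from the WT mean of each gene, in log2 CPM (prior count 2), for the 10 genes in rows and the 8 mice in columns. Ucp1Δ/Δ2 has the largest values in 6 of the 10 genes, and the row of Postn shows no split by genotype.

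Markers of other cell types were read beside the members, against the 13.3% of all genes tested that rose and 7.63% that fell. Of 10 fibroblast and stromal progenitor markers, 9 rose and none fell, with summed levels of 621 to 960 CPM in WT and 1948 to 3134 CPM in Ucp1Δ/Δ mice. All 9 tested of 10 macrophage markers rose, from 103 to 158 CPM to 992 to 1582 CPM. Some of these markers passed the filter on low counts only with Ucp1Δ/Δ mice counted. Among them, Cd68 exceeded it in 0 WT mice, Adgre1 in 1, and Pdgfra and Lum in 2 each. Of 9 tested in each list of 10, 2 mural and 1 endothelial marker rose and none fell, with sums of 231 to 321 against 333 to 370 CPM and 267 to 328 against 328 to 396 CPM. Of 10 brown adipocyte markers, 1 rose and 3 fell. Schwann cell markers summed to 139 to 205 CPM in WT and 753 to 944 CPM in Ucp1Δ/Δ mice, with 2 of the 4 tested rising. Mesothelial markers summed to 4.34 to 10.2 CPM in WT and 4.36 to 9.87 CPM in Ucp1Δ/Δ mice with Upk3b, Wt1 and Krt8 at 0 counts, and of 6 tendon markers none was tested, with Kera and Mkx at 0 counts and sums of at most 1.77 CPM. The part of these cell types in the result was not tested, and in bulk tissue a change in the number of cells of a type and in RNA per cell cannot be told apart.

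Each member was also read against the mean log2 CPM of 8 fibroblast and stromal progenitor markers without collagens, an analysis added after the data were seen. This mean was 4.79 ± 0.29 in WT and 6.09 ± 0.27 in Ucp1Δ/Δ mice (SD, n = 4 in each group). Relative to it, Ucp1Δ/Δ and WT means differed by 1.74 for Mfap5, 0.85 for Fn1 and -1.25 for Postn on the log2 scale (Ucp1Δ/Δ minus WT), each at the smallest unadjusted exact permutation p of 0.0286. Adjusted over the 10 genes, that p is 0.0952, so none passed, and the design allows no smaller value unless more genes reach the minimum. Thbs1 differed by 1.04, Tnc by 0.70, Eln by -0.85, Fbln1 by -0.39, Vcan by 0.28, Fbn1 by 0.11 and Sparc by -0.10, with exact permutation p from 0.0571 to 0.743. The prior count of 2 in log2 CPM shrinks differences at low counts, so those of Thbs1, Tnc, Vcan and Fbln1 may be too low. With all 10 markers as the reference, collagens included, Mfap5 was at 1.5 (exact permutation p = 0.0571), Fn1 at 0.61, Postn at -1.49 and Eln at -1.09 (p = 0.0286 for these 3), Sparc at -0.34, Tnc at 0.45 and Fbn1 at -0.14, again with no adjusted p under 0.0952. Relative to the 8 markers, Sparc and Fbn1 differed by less than the SD between mice of either genotype. That SD was 0.393 in WT and 0.357 in Ucp1Δ/Δ mice for Sparc, and 0.386 and 0.182 for Fbn1. The spread was not computed for the reference of all 10 markers. Under both references the difference between genotypes (Ucp1Δ/Δ minus WT) was highest for Mfap5 and lowest for Postn.

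**Figure D4:**
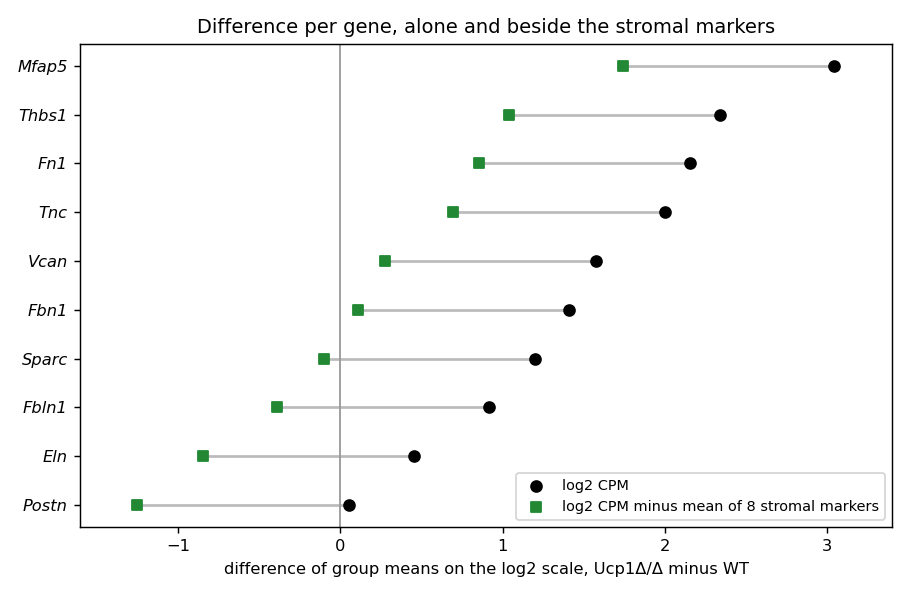
Log2 CPM of each gene minus the mean log2 CPM of 8 stromal markers, as the Ucp1Δ/Δ mean minus the WT mean, next to the difference before this subtraction. Mfap5 stays highest after it, at 1.74, and Postn is the lowest, at -1.25.

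Genes that work with the 10 were described from lists written out by role. Beside each list, 13.3% of all genes tested rose and 7.63% fell, with a median log2FC of -0.0087. These shares are given as description, not as a test. Of 19 other matricellular genes, 5 were tested, of which 3 rose and 1 fell, with a median log2FC of 1.11. Smoc1, a calcium-binding relative of Sparc, fell from 25.6 ± 1.01 to 8.80 ± 2.06 CPM (log2FC -1.53, SE 0.22, adjusted p = 0.000112). Sparcl1, the closest relative of Sparc, rose from 191 ± 38.7 to 412 ± 40.7 CPM (log2FC 1.11, SE 0.18, adjusted p = 0.000344), and Tgfbi, the periostin relative, had a log2FC of 1.52 (SE 0.29, adjusted p = 0.00150). These 2 relatives of Sparc were called in opposite directions, while Tgfbi rose and Postn did not pass the test. Smoc2, a further relative of Sparc, did not pass it either. Ccn1, a matricellular ligand of integrins, had a log2FC of 2.15 (SE 0.60, adjusted p = 0.0180), but WT4 held 25 counts against 2 to 3 in the other WT mice, the genotypes overlapped, and DESeq2's Wald test gave an adjusted p of 0.124. Without WT4 the log2FC of Ccn1 was 3.84, and without WT1, WT3 or Ucp1Δ/Δ3 the call was lost (adjusted p = 0.0534, 0.0647 and 0.0584). Tgfbi, with 3 WT mice above the filter on low counts, and Ccn1, with 1, passed it only with Ucp1Δ/Δ mice counted. Comp, Tnn, Spock1 and Ccn3 had 0 counts.

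Of 22 other elastic fibre genes, 12 were tested, 6 rose and none fell (median log2FC 0.75). Of the cross-linking enzymes, Loxl2, Loxl3 and Loxl4 were too low to be tested, and the other two rose, Lox from 34.4 ± 4.09 to 127 ± 22.5 CPM (log2FC 1.88, SE 0.18, adjusted p = 4.21e-06) and Loxl1 from 5.23 to 23.7 CPM (log2FC 2.14, SE 0.34, adjusted p = 0.000344). Fbln5, a fibulin that tethers elastin to microfibrils and cells, rose from 6.26 to 24.4 CPM (log2FC 1.98, SE 0.28), and Fbln7 from 1.24 to 10.5 CPM (log2FC 2.88, SE 0.46). Emilin2 and Fbln2 were also called, Fbln2 with the call lost under 5 alternatives, DESeq2's Wald test (adjusted p = 0.0748) and the removal of WT1, Ucp1Δ/Δ2 or Ucp1Δ/Δ4 among them, and the latent TGF-beta binding proteins Ltbp1 to Ltbp4, Mfap3 and Mmrn2 were not. Fbln7 and Emilin2 entered the genes tested through Ucp1Δ/Δ mice alone, as no WT mouse exceeded the filter. Fbln5 and Loxl1 had 3 WT mice above it and Fbln2 had 2, so these also passed only with Ucp1Δ/Δ mice counted. Lox had 4 WT mice above it. The number that rose in this list is thus not independent of the rise.

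Of 17 receptors of these proteins, 9 were tested, 6 rose and none fell (median log2FC 0.76). Cd44, the hyaluronan receptor, rose from 1.95 to 23.0 CPM (log2FC 3.59, SE 0.34, adjusted p = 3.45e-06), and it passed the filter through Ucp1Δ/Δ mice alone. Stab1, a scavenger receptor of macrophages and endothelium that takes up SPARC, rose from 6.68 to 26.5 CPM (log2FC 1.99, SE 0.24). Lrp1, a receptor that clears thrombospondin complexes, had a log2FC of 0.94 (SE 0.18), and Itgb5, an integrin subunit, of 1.05 (SE 0.23). Cd47 and Itgb1 were called as well, the latter at an adjusted p of 0.0408, and Cd36, Itgav and Sdc4 were not. Without Ucp1Δ/Δ2 the call for Cd47 was lost.

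Of 19 partners of versican and hyaluronan, 4 were tested, 3 rose and none fell (median log2FC 1.40). The versican-cleaving proteases Adamts5 and Adamts1 rose from 12.1 to 38.1 CPM (log2FC 1.68, SE 0.24, adjusted p = 0.000150) and from 2.99 to 10.3 CPM (log2FC 1.76, SE 0.41, adjusted p = 0.00628), and Adamts9 was at a log2FC of 1.13 (SE 0.36, adjusted p = 0.0356). Adamts9 passed the filter through Ucp1Δ/Δ mice alone and lost its call under 12 of 17 alternatives, and Adamts1 lost its call without WT1 and Ucp1Δ/Δ2 (adjusted p = 0.0643). With 1 WT mouse above the filter, Adamts1 also passed it only with Ucp1Δ/Δ mice counted. The hyaluronidase Hyal1 was at a log2FC of -0.40 (adjusted p = 0.351). Acan, Hapln1, Hapln2 and Cemip had 0 counts.

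**Figure D5:**
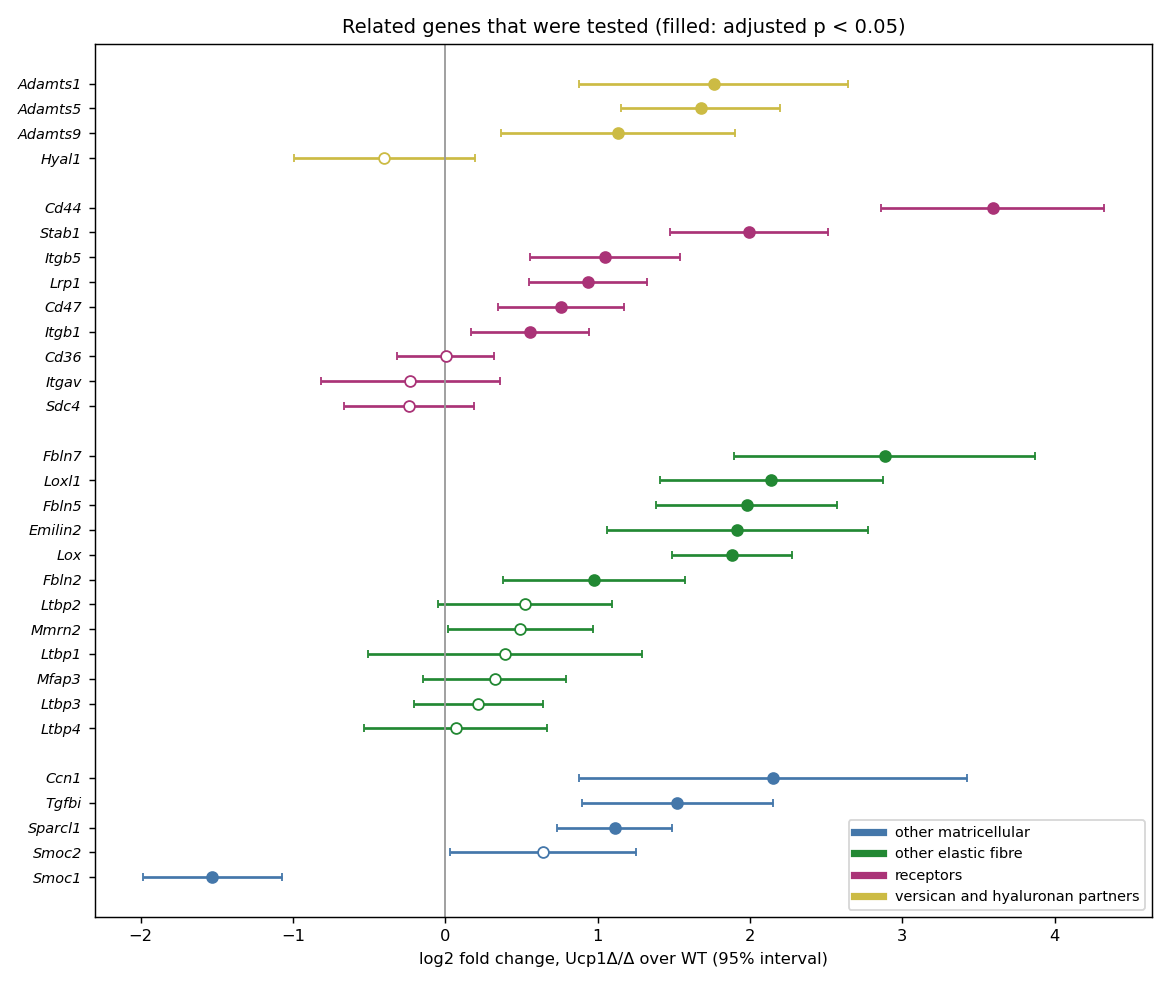
Log2FC of Ucp1Δ/Δ against WT for the tested genes of the 4 related lists, with 95% intervals, filled points for genes with an adjusted p under 0.05 and open points for the others. Smoc1 is the only called gene below 0, and Cd44 has the highest log2FC at 3.59.

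The genes nearest in profile to the members were found by root mean square distance to the median profile of the 8 tested members over the 8 mice, in log2 CPM minus the WT mean, among 6422 genes of at least 10 CPM on average. They were Tpm4 at 0.125, Coro1c at 0.147, Actb at 0.163, Sash1 at 0.164 and Jpt1 at 0.166. Tpm4, Coro1c and Actb encode a tropomyosin, a coronin and beta-actin of the actin cytoskeleton. The median profile itself was 0.030, 0.11, -0.13 and 0.19 in WT1 to WT4 and 1.53, 1.89, 1.55 and 1.29 in Ucp1Δ/Δ1 to Ucp1Δ/Δ4.

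On the opposite strand, exons of 5 members overlap another annotated gene, and the strand setting of the counting is not given in the sources used here. The overlapping genes of Fn1, Thbs1 and Eln had 0 counts over the 8 mice and that of Fbn1, Gm9913, which shares 2442 exonic bases, had 3 counts. The one overlapping Tnc, over 176 bases, was not used here.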

How the data were processed

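BAT of 4 WT and 4 Ucp1Δ/Δ mice was profiled by bulk RNA-seq and grouped by the sample labels. The authors deposited whole-number counts per Ensembl gene, and a table of log2 values, which are the scaled counts with 1 added. The study's methods name bbduk, STAR and HTseq-counts on mm10, whereas the submitters' processing notes name Trimmomatic, HISAT2 and DESeq2 on GRCm38/mm10. The annotation release and strand setting are not given in the sources used here.

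Counts were filtered with filterByExpr (above 4.22 CPM in at least 4 mice), scaled by TMM and fitted on genotype with edgeR's quasi-likelihood test (R 4.3.3, edgeR 4.0.16, limma 3.58.1, DESeq2 1.42.0), with Benjamini-Hochberg adjustment over all genes tested. The SE was the log2FC divided by the root of F. Log2 CPM used a prior count of 2, and counting intervals cover counting error only. No mouse duplicated another of its genotype, since pairs within a genotype gave chi-square ratios of 4.69 to 23.2. The labels do not say whether mice shared litters, so p-values measure the spread between these samples. Positions are from GENCODE M21, and 30934 identifiers had a symbol. The code was tested on simulated data.

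Members and lists were chosen with earlier results of these data known. Named genes were the members, Pnpla2, in each related list the 4 with the smallest adjusted p and any called against its direction, and the 5 nearest profiles. The other genes named from the lists and Gm9913 were chosen after their values were seen. Alternatives were other scaling, tests, filters and thresholds, removal of mitochondrially encoded genes, a replicate block and each mouse left out. The stromal reference and the removal of both mice highest in muscle markers were added after seeing the data.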

Additional observations from a re-analysis of the deposited data

Results flagged for a closer look

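In 5 of 58 groups of 4 mice, 1 mouse stood apart from the other 3 by Dixon's test on log2 CPM, where chance gives about 1 in 20 groups, or 2.9 of 58. For Vcan, Ucp1Δ/Δ2 was at 2.99 and the other Ucp1Δ/Δ mice at 2.22 to 2.32 (23 counts against 9 to 11), a gap of 0.877 of the group's range. For Fbn1, WT3 was at 2.36 and the other WT mice at 3.07 to 3.16 (13 counts against 15 to 18), a gap of 0.884 of the range.

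Among the related genes, WT4 was high for Ccn1, at 3.75 against 0.76 to 1.22 (25 counts against 2 to 3), a gap of 0.847 of the range. WT3 was low for Tgfbi, at 2.27 against 2.52 to 2.56 (12 counts against 10 to 11), a gap of 0.856. Ucp1Δ/Δ2 was high for Cd47, at 6.68 against 6.22 to 6.27 (328 counts against 178 to 208), a gap of 0.886. The cause of these values was not tested.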

How the results depend on the processing

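Over the 10 member genes, 171 log2FC values were recomputed under the alternatives, of which 166 kept their direction and their side of the threshold, 1 lost its call (Vcan without the 2 mice highest in muscle markers) and 4 changed sign, all for Postn. Postn was at -0.0049 with DESeq2's Wald test, ranged from -0.15 to 0.14 with each mouse left out, and was at -0.31 without the 2 mice highest in muscle markers. The number of member genes that rose was 6, became 2 where every mouse had to hold 10 counts, which left 4 members to test, and was 5 to 6 with each mouse left out. Among other matricellular genes the 3 that rose became 5 with DESeq2's Wald test, 7 with the looser filter of 1 count and 3 to 6 with a mouse left out. With 10 counts required of every mouse, 2 other elastic fibre genes and 1 versican or hyaluronan partner rose, and the latter was 1 also without the 2 mice highest in muscle markers. Leaving out each mouse gave 5 to 8, 2 to 3 and, for receptors, 4 to 6. Of the 19 related genes called, 13 kept the call under every alternative that tested them. Some of these, such as Cd44 and Fbln7, were not tested where every mouse had to hold 10 counts. Adamts9 lost the call under 12, Itgb1 under 9, Ccn1 and Fbln2 under 5 each, Cd47 under 2 and Adamts1 under 1 of the alternatives.

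All genes called numbered 1872, and 1195 with 10 counts required of every mouse, 1081 with a log2FC beyond 1, 1069 at an adjusted p under 0.01, 1095 without the 2 mice highest in muscle markers, and 1345 (without Ucp1Δ/Δ2) to 2155 (without WT4) with each mouse left out. Scaling by total counts alone moved the median log2FC of all genes to 0.13 and gave 1478 higher and 404 lower genes in place of 1191 and 681. The cause of these shifts was not tested. With the replicate number as a block, 6 member genes rose and 1719 genes were called. Same-numbered mice correlated at -0.196 to 0.304 in their deviations, so the numbers were not taken as pairs. Depth limits Thbs1, Tnc, Vcan and Fbln1 most, with 0 to 6 counts in WT mice.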
